A study of Mus musculus with 11 samples.

Results

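The keratin genes of sorted mouse epidermal cells were followed across 11 bulk RNA libraries. Members were all protein-coding genes whose symbol is Krt followed by digits alone, with at least 10 counts summed over the libraries. This gave 48 genes of 49 with such a symbol, among 55536 genes in the deposited counts. Krt40, with 2 counts, fell short. Krt6a, Krt6b, Krt33a and Krt33b carry a letter after the digits and were not members, nor was the pseudogene Krt74. Of the 48 members, 24 lie on chromosome 11 and 24 on chromosome 15, and 25 encode type I and 23 type II keratins.

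Keratins build the intermediate filaments of epithelial cells. Each filament subunit pairs an acidic type I with a basic type II keratin, so the genes are usually expressed in partner pairs. In skin, each layer and each part of the hair follicle has its own pairs, and keratin transcripts are therefore widely used to tell basal keratinocytes, suprabasal keratinocytes, bulge cells, upper follicle cells, inner root sheath and hair shaft apart.

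The cells came from dorsal skin of male mice of the strain CD4Cre R26-tdT (C57Bl6/N), in which the CD4 promoter drives Cre and cells that have had Cre activity, with their progeny, carry the tdTomato reporter (tdT). All 4 groups came from this 1 genotype and from a CD49f+CD34+ sort gate, and they differ by Sca-1 and tdT: 3 libraries of Sca-1+ tdT+ cells, 2 of Sca-1+ tdT- cells, 3 of Sca-1neg tdT+ cells and 3 of Sca-1neg tdT- cells. Each library pooled 2 mice. Mice were 29 weeks old for replicate 1 and 32 weeks old for replicates 2 and 3, so age and replicate number cannot be told apart. The labels do not say whether mice were shared between groups. The p-values below set differences between groups against the spread between these libraries, which the test treats as independent. Of the sort markers, CD49f (Itga6) is the basal integrin, CD34 is found on mouse bulge cells and Sca-1 (Ly6a) on keratinocytes outside the bulge, in the epidermis and upper follicle.

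Total counts ran from 17409131 to 46542177 per library. Levels are given in CPM, counts scaled to a common library size after TMM normalization. Cd34 was between 22.4 and 35.7 CPM in Sca-1+ tdT+, at 320 and 383 CPM in Sca-1+ tdT-, at 468 to 842 CPM in Sca-1neg tdT+ and at 638 to 1130 CPM in Sca-1neg tdT-. Ly6a lay between 153 and 294 CPM for the Sca-1+ gate and between 2.46 and 59.2 CPM for the Sca-1neg gate. The tdT tracer stood at 2.05 CPM for the library labelled Sca-1neg tdT+ replicate 2, below the 2.54 to 4.89 CPM of the tdT- libraries, whereas the other tdT+ libraries held 133 to 307 CPM. Unlike the other levels, these tracer values were scaled by total counts alone, without TMM. A set of 3 libraries (Sca-1neg tdT+ replicates 1 and 2, Sca-1neg tdT- replicate 2) held 10358 to 21517 CPM of 10 liver markers, against at most 80.2 CPM elsewhere. Leaving these 3 out keeps 1 Sca-1neg tdT+ library, replicate 3, so every value given without them assumes that this library varies like those of the other groups. The 10 endothelial markers, none at 0, summed to 44.5 to 83.1 CPM in Sca-1+ tdT+, to 2205 and 2341 CPM in Sca-1+ tdT-, to 90.0, 584 and 6.78 CPM in Sca-1neg tdT+ and to 42.8 to 128 CPM in Sca-1neg tdT-. The 10 T cell markers summed to 281 to 832 CPM in Sca-1+ tdT+, 74.0 and 79.9 CPM in Sca-1+ tdT-, 29.6 to 58.6 CPM in Sca-1neg tdT+ and 13.2 to 15.1 CPM in Sca-1neg tdT-. In such bulk libraries, fewer cells of a type and less RNA per cell cannot be told apart.

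Keratins took 4.18% to 4.62% of all counts in the Sca-1+ tdT+ libraries, 3.12% and 3.37% in Sca-1+ tdT-, 2.22% to 3.15% in Sca-1neg tdT+ and 3.08% to 3.24% in Sca-1neg tdT-. Only the Sca-1+ tdT+ range stood clear of the other 3 groups. Levels of different genes were compared as CPM per kb of the longest protein-coding transcript. On that scale the order over all libraries was Krt5, Krt15, Krt14, Krt17, Krt10, Krt1, Krt77 and Krt79, and these 8 genes held 95.5% to 98.1% of the summed keratin level of each library. Of the other members, 14 were at or below 1 CPM in their highest group.

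**Figure D1:**
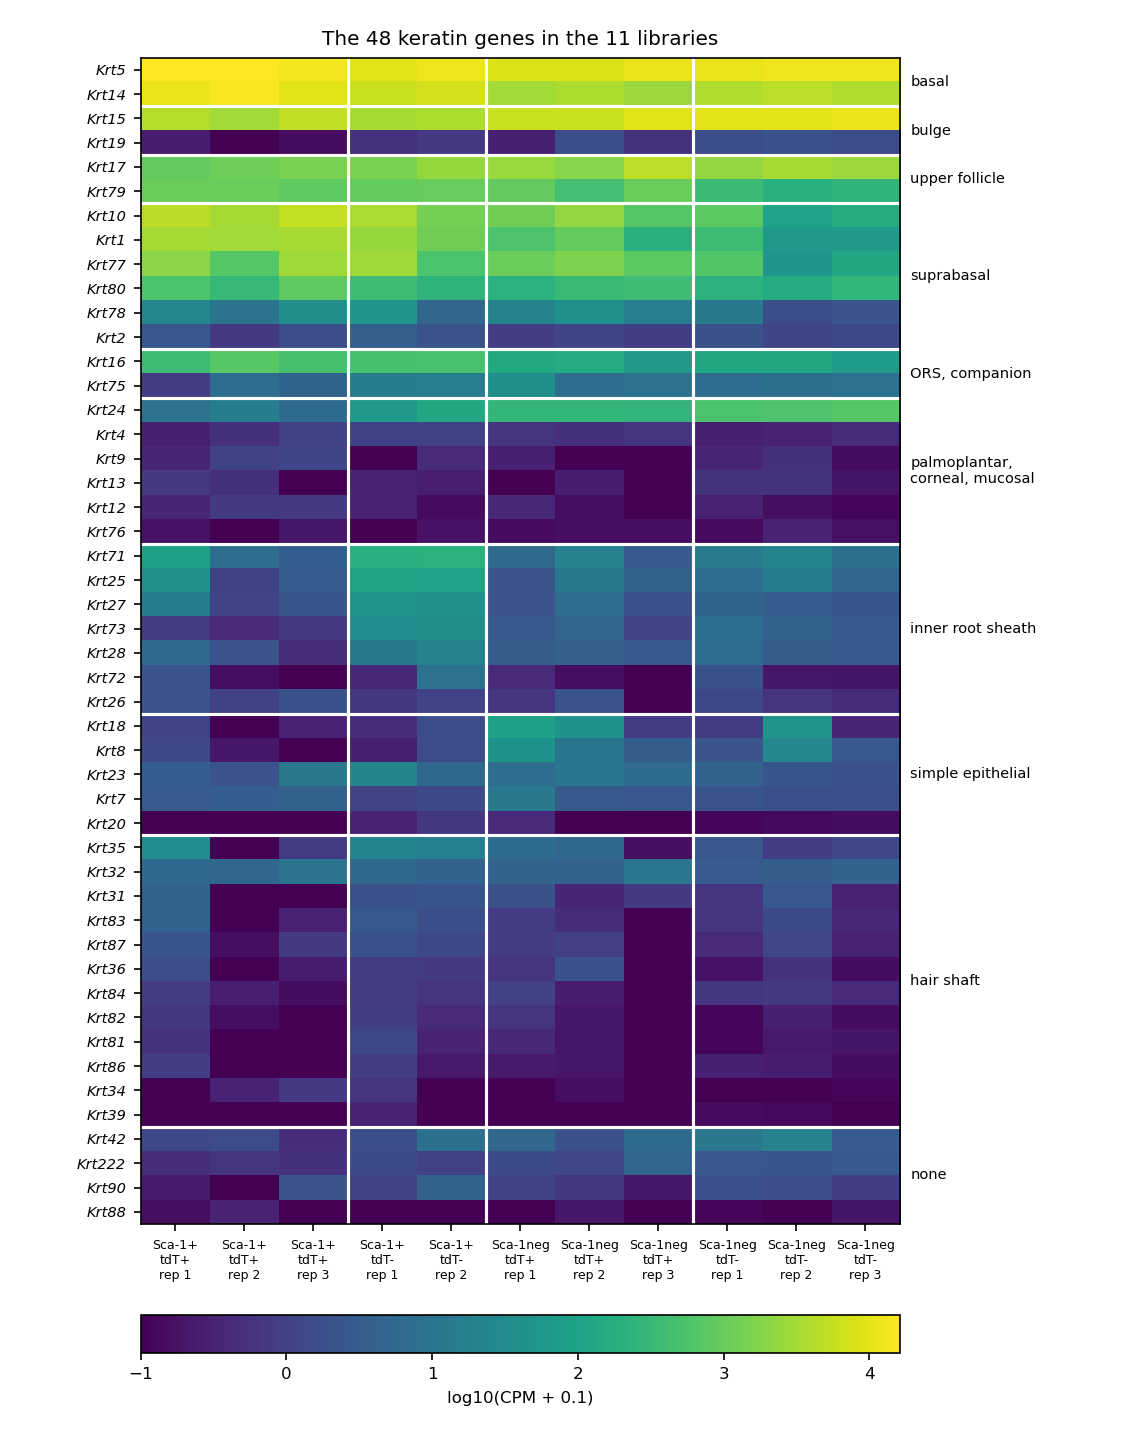
Level of each of the 48 keratin genes (rows, by compartment and falling mean level) in each of the 11 libraries (columns), as log10(CPM + 0.1) on a colour scale. Krt5, Krt14, Krt15, Krt17 and Krt79 are bright in every library, Krt71, Krt25, Krt27, Krt73 and Krt28 are brightest in the 2 Sca-1+ tdT- libraries, and Krt8 and Krt18 are bright in 3 Sca-1neg libraries.

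Genes were tested with edgeR's quasi-likelihood test in 1 model over all 11 libraries, with Benjamini-Hochberg adjustment over the 20307 genes that passed the low-count filter. A gene was called at an adjusted p under 0.05. Fold changes are log2 values with an approximate standard error (SE). Of the 48 keratins, 44 passed the filter, and Krt20, Krt39, Krt76 and Krt88 did not.

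In the Sca-1+ gate, 0 keratins were higher and 2 lower in tdT+ than in tdT- cells (Krt24 and Krt73), where 0.394% of all genes were called higher and 2.34% lower. In the Sca-1neg gate, 0 keratins were called in either direction between tdT+ and tdT- cells, where 0.0542% of all genes were called higher and 0.00985% lower. There, 4 of 44 keratins (9.09%) had an unadjusted p under 0.05, near the 8.33% of all genes, and DESeq2 called 1, Krt79. Between Sca-1+ and Sca-1neg cells without tdT, 3 keratins were called higher (Krt16, Krt73, Krt79) and 2 lower (Krt15, Krt24), against 3.68% and 2.06% of all genes. Without Sca-1+ tdT- replicate 1, 0 keratins were called in that comparison. Between Sca-1+ and Sca-1neg cells with tdT, 3 were called higher (Krt5, Krt14, Krt16) and 5 lower (Krt15, Krt17, Krt24, Krt73, Krt222), against 5.94% and 6.73% of all genes. The difference of the tdT effect between gates was called for 0 keratins in the positive and 1 in the negative direction (Krt73), against 0.0148% and 0.468% of all genes. These comparisons share libraries and are not independent of each other.

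The median log2 fold change of the 44 keratins was -0.74 for tdT+ against tdT- in the Sca-1+ gate, beside 0.04 over all genes tested. It was 0.14 for the same contrast in the Sca-1neg gate, beside -0.03. For Sca-1+ against Sca-1neg it was 1.27 in tdT- cells, beside -0.13, and 0.56 in tdT+ cells, beside -0.07. These medians count rare and abundant keratins alike and do not describe the total keratin level. For tdT in the Sca-1+ gate, the median was 0.64 for basal and 0.48 for suprabasal keratins. It was -0.385 for upper follicle, -2.68 for inner root sheath and -0.60 for hair shaft keratins. All 15 calls of the 4 pairwise comparisons had the same direction in the 29-week libraries taken alone. There each group is 1 library, and no test was possible. Those libraries are among the ones that made the calls, so the shared direction is not an independent check. For calls without overlap between the groups, it was fixed beforehand. In the 32-week libraries alone, 14 of the 16 calls were lost, at fewer libraries per group. The exceptions were Krt24 for tdT+ against tdT- in the Sca-1+ gate and for Sca-1+ against Sca-1neg in tdT+ cells.

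**Figure D2:**
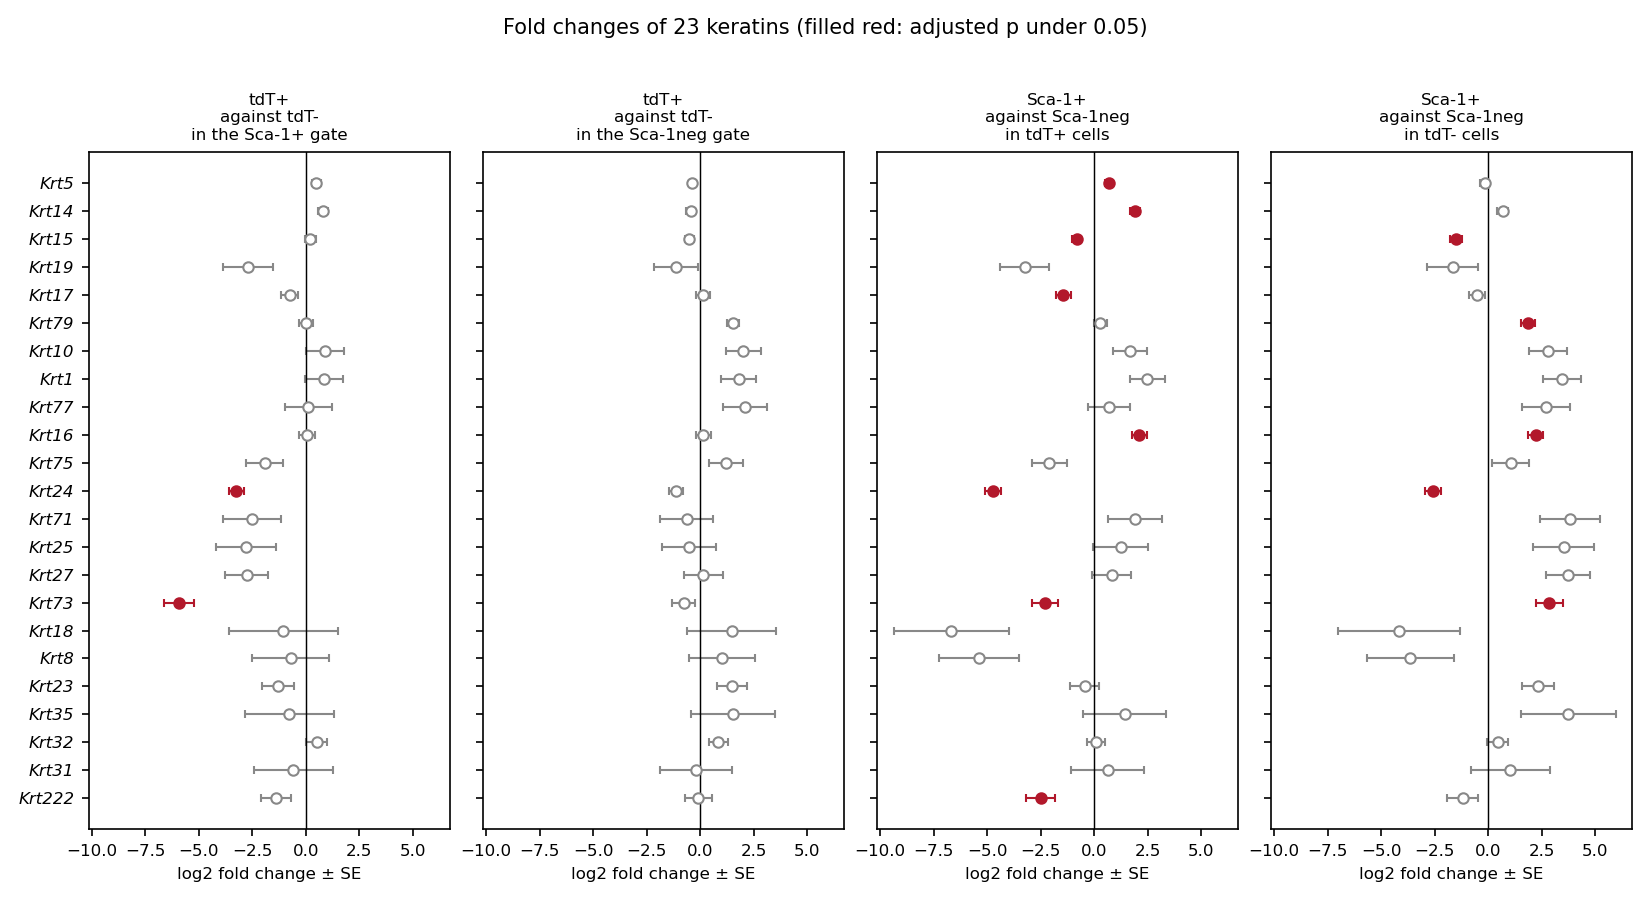
Log2 fold change with its SE (points and bars) of 23 keratins in 4 comparisons, by compartment from basal at the top. Filled red points are the 15 calls, of which Krt24 and Krt73 are the only ones in the leftmost panel, tdT+ against tdT- in the Sca-1+ gate.

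The basal pair, Krt5 (type II) and Krt14 (type I), forms the filaments of basal keratinocytes, and Krt15 is a type I keratin of the basal layer and the bulge that can also pair with Krt5. Krt14 stood at 11354, 14634 and 9306 CPM in Sca-1+ tdT+ replicates 1 to 3, against 3114, 3709 and 2615 CPM in Sca-1neg tdT+. The groups did not overlap, and Krt14 rose by 1.90 ± 0.22 on the log2 scale (SE; adjusted p = 0.00047). In cells without tdT it stood at 6293 and 7203 CPM in Sca-1+ and at 3856, 5010 and 3884 CPM in Sca-1neg, again without overlap, with a log2 fold change of 0.67 ± 0.24 that did not pass (adjusted p = 0.135). DESeq2 called Krt14 in that comparison. Between tdT+ and tdT- cells of the Sca-1+ gate the change was 0.80 ± 0.25 (adjusted p = 0.14), although the 3 tdT+ libraries lay above both tdT- libraries, and DESeq2 called it (0.77, adjusted p = 0.0364). The tdT effect on Krt14 differed between the gates by 1.24 ± 0.33 (adjusted p = 0.154), which passed with DESeq2 (1.12, adjusted p = 0.0301) and without a low-count filter (1.16, adjusted p = 0.0361). Of the 1649 windows of 50 bases in the Krt14 transcript, 14.4% occur in another gene, most of them in Krt16, and how the authors counted reads with several matches is not known here.

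Group means of Krt5 lay closer together than those of Krt14. Krt5 stood at 16210, 15602 and 13331 CPM in Sca-1+ tdT+, at 9608 and 11985 CPM in Sca-1+ tdT-, at 8213, 8689 and 11346 CPM in Sca-1neg tdT+ and at 11586, 12277 and 12320 CPM in Sca-1neg tdT-. The Sca-1+ tdT+ libraries lay above all others. It was called higher in Sca-1+ than in Sca-1neg cells with tdT (log2 fold change 0.68 ± 0.18, adjusted p = 0.0344). The call held in 7 of 17 alternatives. It was lost without the 3 libraries with liver transcripts (0.39, adjusted p = 0.407) and, with only the library labelled Sca-1neg tdT+ replicate 2 left out, stood at 0.62 (adjusted p = 0.107). In cells without tdT the change was -0.16 ± 0.20 (adjusted p = 0.717).

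Krt15 went the other way from Krt14. It stood at 4259, 3018 and 5040 CPM in Sca-1+ tdT+, at 3425 and 3742 CPM in Sca-1+ tdT-, at 6274, 6312 and 9217 CPM in Sca-1neg tdT+ and at 9280, 9868 and 11555 CPM in Sca-1neg tdT-. All 5 Sca-1+ libraries lay below all 6 Sca-1neg libraries. Krt15 fell by 1.51 ± 0.27 on the log2 scale in Sca-1+ against Sca-1neg cells without tdT (adjusted p = 0.0107) and by 0.82 ± 0.23 in cells with tdT (adjusted p = 0.0385). Leaving out either Sca-1+ tdT- library ended the first call, and the second held in 7 of 17 alternatives, all with the same sign. Neither tdT comparison was called for Krt15, with 0.20 ± 0.26 in the Sca-1+ gate (adjusted p = 0.828) and -0.49 ± 0.23 in the Sca-1neg gate (adjusted p = 0.601). Krt19, another keratin of the bulge, did not exceed 1.98 CPM in any library. DESeq2 called Krt19 for Sca-1+ against Sca-1neg with tdT.

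On the per-length scale, the ratio of Krt15 to Krt14 was 0.206 to 0.541 in Sca-1+ tdT+, 0.519 and 0.544 in Sca-1+ tdT-, 1.70 to 3.52 in Sca-1neg tdT+ and 1.97 to 2.97 in Sca-1neg tdT-. The ratio of Krt14 to Krt5 was 0.778 to 1.21 over the 5 Sca-1+ libraries and 0.298 to 0.552 over the 6 Sca-1neg libraries. When Krt14 and Krt15 were added, a sum chosen after their values were seen, the ratio to Krt5 was 1.25 to 1.46 in Sca-1+ tdT+, 1.181 and 1.308 in Sca-1+ tdT-, 1.35 to 1.49 in Sca-1neg tdT+ and 1.47 to 1.62 in Sca-1neg tdT-. The gates, apart in each single ratio, overlapped in the summed one among the tdT+ libraries. Among the tdT- libraries they stayed apart, with the Sca-1+ gate lower. The type I keratins together made up 55.0% to 58.9% of the per-length keratin level in the Sca-1+ libraries and 61.9% to 66.4% in the Sca-1neg libraries.

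**Figure D3:**
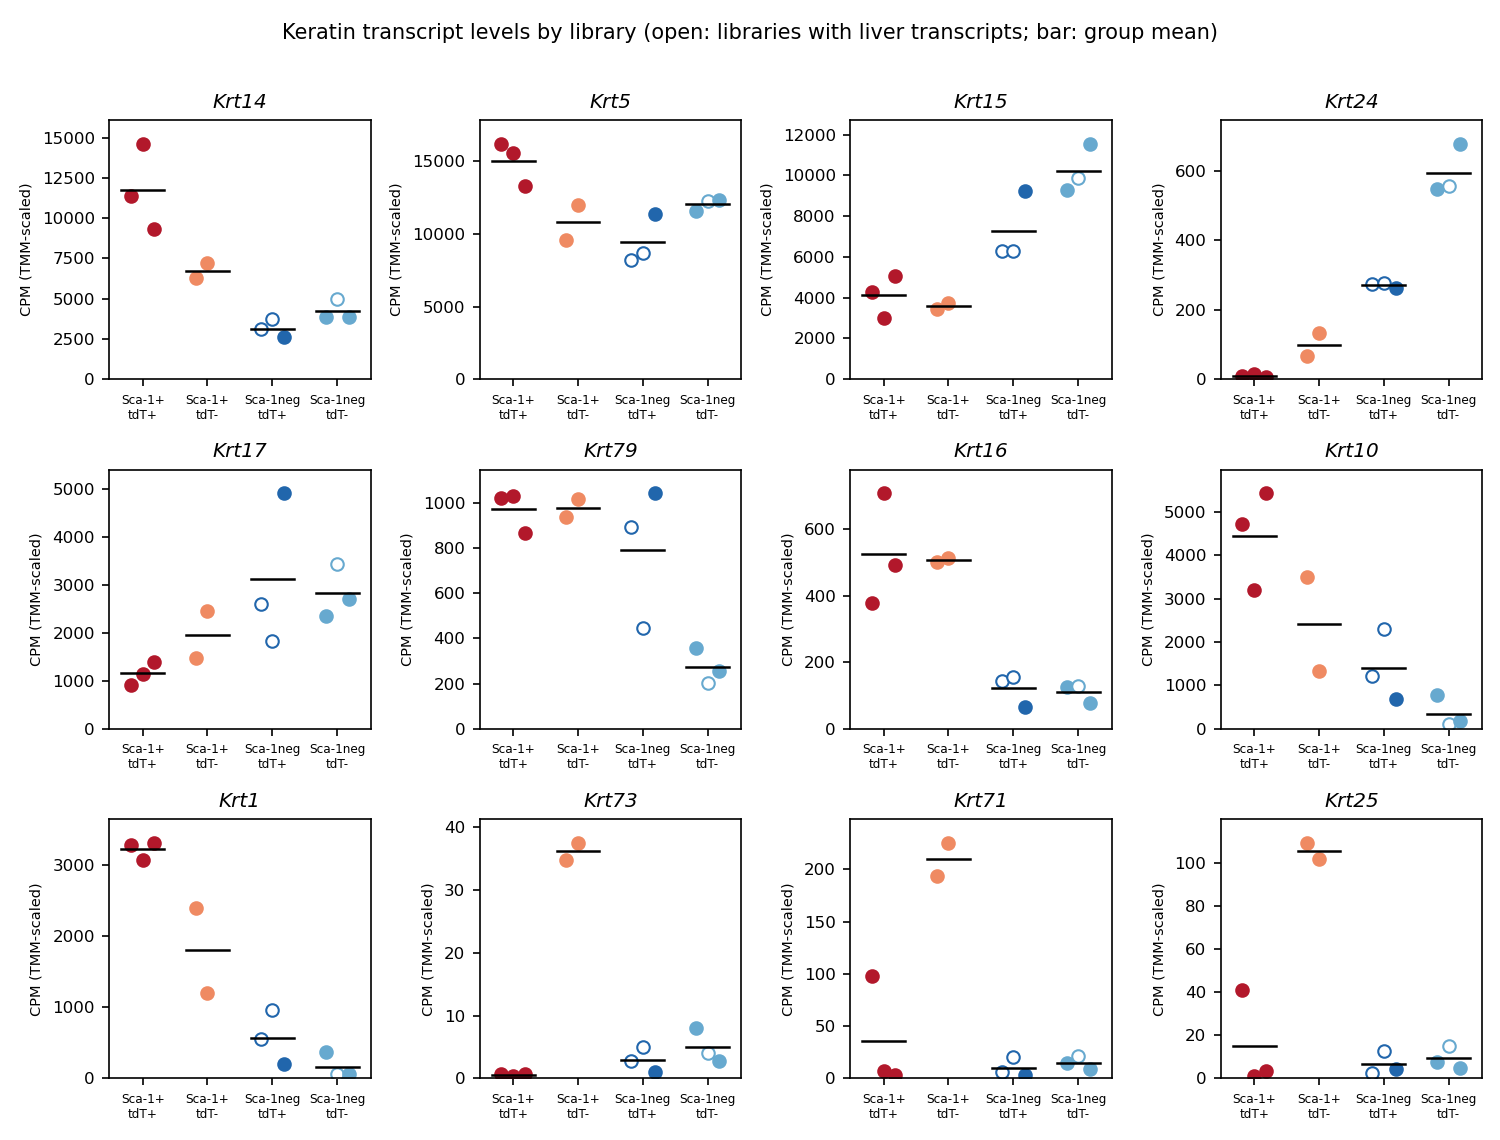
CPM of 12 keratins in each library (points, linear axes from 0, replicates side by side), with the group mean as a bar and the 3 libraries with liver transcripts as open points. Krt14 and Krt16 are higher in the Sca-1+ groups, Krt15 and Krt24 in the Sca-1neg groups, and Krt73, Krt71 and Krt25 in the 2 Sca-1+ tdT- libraries.

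Krt24, a type I keratin at chr11:99279959-99285262 on the minus strand (mm10), had the largest ratio between its highest and lowest group mean among the keratins that reached 100 CPM in a group (10.3 ± 4.62 CPM in Sca-1+ tdT+ and 595 ± 72.6 CPM in Sca-1neg tdT-, SD, n = 3 each). It stood at 8.98, 15.4 and 6.50 CPM in Sca-1+ tdT+, at 65.8 and 132 CPM in Sca-1+ tdT-, at 275, 277 and 264 CPM in Sca-1neg tdT+ and at 549, 557 and 678 CPM in Sca-1neg tdT-. No 2 groups overlapped. Within the Sca-1+ gate it fell by 3.26 ± 0.35 on the log2 scale in tdT+ cells (adjusted p = 0.000943). Against Sca-1neg cells, Sca-1+ cells had log2 fold changes of -4.72 ± 0.36 with tdT (adjusted p = 6.2e-05) and -2.59 ± 0.38 without tdT (adjusted p = 0.00569).

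In the Sca-1neg gate the tdT difference of Krt24 was -1.13 ± 0.31 and did not pass (adjusted p = 0.315). The difference between the tdT effects of the gates was -2.13 ± 0.46 (adjusted p = 0.0791) and missed the threshold, which it passed with DESeq2 (-2.25, adjusted p = 0.000334) and without Sca-1+ tdT+ replicate 2 (-2.62, adjusted p = 0.0196). Cd34, which the sort used, stood lowest in Sca-1+ tdT+ too (22.4 to 35.7 CPM), and T cell and endothelial markers also separated the tdT+ from the tdT- libraries of the Sca-1+ gate (281 to 832 against 74.0 and 79.9 CPM, and 44.5 to 83.1 against 2205 and 2341 CPM). Their part in the Krt24 results was not tested. The Krt24 calls for tdT in the Sca-1+ gate and for Sca-1+ against Sca-1neg with tdT held in all 17 alternatives, at log2 fold changes of -3.72 to -2.73 and -5.16 to -4.48. The third was lost in the 32-week libraries and without Sca-1+ tdT- replicate 1 (range -3.13 to -2.19). No window of 50 bases in the Krt24 transcript occurs in another gene.

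Krt16 is a type I keratin of the outer root sheath that is induced in wounded and hyperproliferative epidermis. It stood at 379, 708 and 493 CPM in Sca-1+ tdT+, at 503 and 513 CPM in Sca-1+ tdT-, at 144, 157 and 66.6 CPM in Sca-1neg tdT+ and at 124, 128 and 77.1 CPM in Sca-1neg tdT-. Every Sca-1+ library lay above every Sca-1neg library. Krt16 rose in Sca-1+ against Sca-1neg cells by 2.11 ± 0.35 on the log2 scale with tdT (adjusted p = 0.00341) and by 2.21 ± 0.37 without tdT (adjusted p = 0.00927). Without Sca-1+ tdT- replicate 1 the second was 2.21 (adjusted p = 0.0706). The 5 proliferation markers summed to 261 to 582 CPM in Sca-1+ tdT+, to 390 and 507 CPM in Sca-1+ tdT-, to 156 to 266 CPM in Sca-1neg tdT+ and to 201 to 289 CPM in Sca-1neg tdT-, and none was at 0. All 5 had positive estimates in both gate comparisons, as had 9450 of all 20307 genes with tdT and 8437 without. With tdT, 3 of the 5 were called higher, and without tdT 0, where 5.94% and 3.68% of all genes were. The part of these markers in the Krt16 result was not tested. The tdT differences of Krt16 were 0.05 ± 0.37 in the Sca-1+ gate and 0.16 ± 0.33 in the Sca-1neg gate, and neither passed (adjusted p = 0.987 and 0.919). Of the windows of the Krt16 transcript, 37.6% occur in another gene, so its counts are less certain than those of Krt24. Krt75, of the companion layer, stood at 0.773, 7.67 and 4.65 CPM in Sca-1+ tdT+, at 16.2 and 16.9 CPM in Sca-1+ tdT-, at 38.9, 7.23 and 9.26 CPM in Sca-1neg tdT+ and at 7.09, 8.25 and 8.64 CPM in Sca-1neg tdT-, and was not called by edgeR. DESeq2 called Krt75 for Sca-1+ against Sca-1neg with tdT and for the difference of the tdT effects.

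Krt79, a type II keratin of the infundibulum and sebaceous duct, was low in 1 group. It averaged 974 ± 91.4 CPM in Sca-1+ tdT+ (SD, n = 3), 976 ± 56.5 CPM in Sca-1+ tdT- (n = 2) and 794 ± 312 CPM in Sca-1neg tdT+ (n = 3), against 358, 203 and 257 CPM in the 3 Sca-1neg tdT- libraries. It rose in Sca-1+ against Sca-1neg cells without tdT by 1.84 ± 0.32 on the log2 scale (adjusted p = 0.0106), and differed by 0.29 ± 0.29 with tdT (adjusted p = 0.537). The call was lost when Sca-1+ tdT- replicate 1 was dropped (adjusted p = 0.0673) or Sca-1neg tdT- replicate 3 was (adjusted p = 0.0536). In the Sca-1neg gate, tdT+ libraries held 895, 444 and 1043 CPM, all above the tdT- libraries. That difference was 1.54 ± 0.30 and missed the threshold (adjusted p = 0.126). It passed with DESeq2 (1.63, adjusted p = 3.38e-05). With the 3 libraries that hold liver transcripts left out it was 1.76 (adjusted p = 0.0296), from 1 tdT+ library against 2 tdT- libraries, with the spread taken from the other groups. It stood at 1.83 (adjusted p = 0.0515) when only the library labelled Sca-1neg tdT+ replicate 2 was dropped. In the Sca-1+ gate the tdT difference was -0.004 ± 0.33 (adjusted p = 1), and the difference between gates was -1.55 ± 0.44 (adjusted p = 0.182). That difference passed with DESeq2 (-1.67, adjusted p = 0.0104). With the libraries that hold liver transcripts left out it was -1.83 (adjusted p = 0.0263), resting on the 1 Sca-1neg tdT+ library that is left.

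Krt17, a type I keratin of the outer root sheath and upper follicle, stood at 921, 1147 and 1395 CPM in Sca-1+ tdT+, at 1469 and 2456 CPM in Sca-1+ tdT-, at 2605, 1832 and 4909 CPM in Sca-1neg tdT+ and at 2348, 3426 and 2711 CPM in Sca-1neg tdT-. It fell by 1.43 ± 0.35 on the log2 scale in Sca-1+ against Sca-1neg cells with tdT (adjusted p = 0.023), without overlap between those groups. The call held in 12 of 17 alternatives and was lost without Sca-1neg tdT+ replicate 3 (-0.94, adjusted p = 0.0563) and without Sca-1+ tdT+ replicate 1 or 2. In cells without tdT the change was -0.53 ± 0.39 (adjusted p = 0.485), with overlap.

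Suprabasal keratins, made by keratinocytes that have left the basal layer, varied widely between replicates. Krt10 (type I) stood at 4725, 3204 and 5433 CPM in Sca-1+ tdT+, at 3511 and 1334 CPM in Sca-1+ tdT-, at 1225, 2308 and 697 CPM in Sca-1neg tdT+ and at 774, 101 and 170 CPM in Sca-1neg tdT-. Its partner Krt1 (type II) stood at 3281, 3075 and 3314 CPM in Sca-1+ tdT+, at 2396 and 1207 CPM in Sca-1+ tdT-, at 560, 955 and 204 CPM in Sca-1neg tdT+ and at 369, 63.1 and 61.8 CPM in Sca-1neg tdT-. Both genes were highest in Sca-1+ tdT+ and lowest in Sca-1neg tdT- by group mean, and Krt10 overlapped between the tdT+ and tdT- groups of each gate.

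None of the 6 suprabasal keratins, all of which passed the filter, was called by edgeR in any comparison. Krt1 came closest, with a log2 fold change of 3.45 ± 0.90 for Sca-1+ against Sca-1neg without tdT (adjusted p = 0.0646) and 2.49 ± 0.82 with tdT (adjusted p = 0.0872). DESeq2 called both changes of Krt1 (3.54, adjusted p = 0.00155, and 2.45, adjusted p = 0.0169), and leaving out the libraries with liver transcripts brought the first to 3.12 (adjusted p = 0.0441). Krt10 differed by 2.80 ± 0.88 (adjusted p = 0.112; DESeq2 2.89, adjusted p = 0.015) without tdT and 1.66 ± 0.80 (adjusted p = 0.205) with tdT. Krt77, another type II suprabasal keratin, stood at 2054, 678 and 2943 CPM in Sca-1+ tdT+, at 2953 and 537 CPM in Sca-1+ tdT-, at 1099, 1623 and 776 CPM in Sca-1neg tdT+ and at 620, 53.5 and 133 CPM in Sca-1neg tdT-, with overlap between tdT+ and tdT- in the Sca-1+ gate and none in the Sca-1neg gate. DESeq2 called Krt77 for Sca-1+ against Sca-1neg without tdT. Suprabasal keratins made up 13.9% to 24.2% of the per-length keratin level in Sca-1+ tdT+, 8.60% and 23.8% in Sca-1+ tdT-, 4.69% to 15.6% in Sca-1neg tdT+ and 0.778% to 4.99% in Sca-1neg tdT-. In the Sca-1neg gate, the libraries with liver transcripts include the 2 higher tdT+ values, and without them the share was 4.69% in the 1 tdT+ library and averaged 3.15% in the 2 tdT- libraries. The tdT difference of Krt1 in that gate was 1.80 ± 0.80 (adjusted p = 0.602), and -0.08 without those libraries. The suprabasal keratins did not all behave like Krt1. In the 1 tdT+ library left, Krt77, Krt78 and Krt80 lay above both tdT- libraries left, Krt1 and Krt10 between them and Krt2 below.

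**Figure D4:**
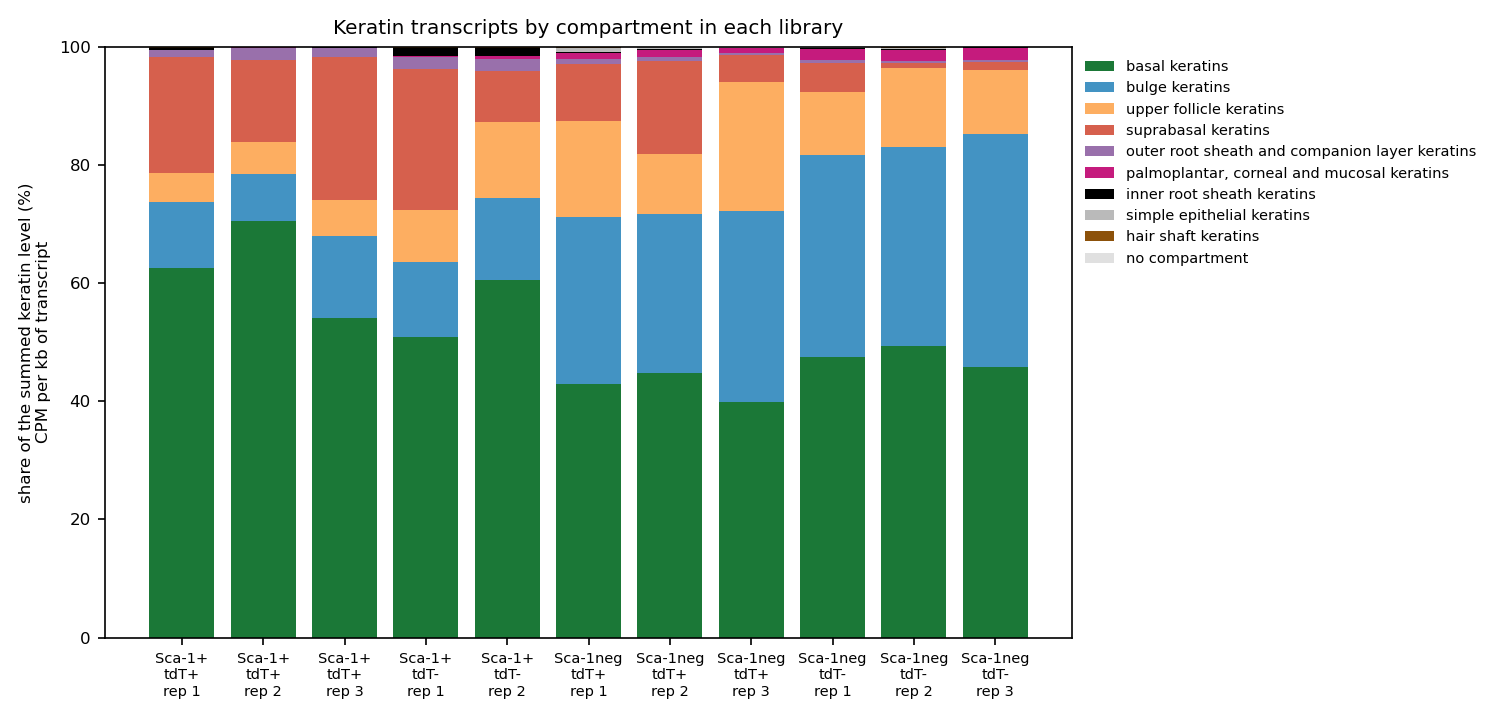
Share of each compartment in the summed keratin level of each library (stacked bars, CPM per kb of transcript, in percent). The bulge share is 7.96% to 13.9% in the 5 Sca-1+ libraries and 27.1% to 39.5% in the 6 Sca-1neg libraries, and the inner root sheath share is 1.26% and 1.35% in Sca-1+ tdT- and at most 0.364% elsewhere.

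The inner root sheath is the sleeve of cells that moulds the growing hair shaft, and its keratins are made in differentiating cells of the lower follicle. Of 7 such members, 5 were highest in the 2 Sca-1+ tdT- libraries. The windows around their starts are shown for that shared pattern, together with that of Krt24 for its different one, a choice made after the values were seen. The windows hold 300 bases around each RefSeq start (GRCm38.p6), most of them upstream, 5′ to 3′ on the minus strand, on which all 6 genes lie. Capitals mark matches on either strand to the TATA box core TATAAA, to the CCAAT box and to the homeodomain core TAATTA.
Krt71: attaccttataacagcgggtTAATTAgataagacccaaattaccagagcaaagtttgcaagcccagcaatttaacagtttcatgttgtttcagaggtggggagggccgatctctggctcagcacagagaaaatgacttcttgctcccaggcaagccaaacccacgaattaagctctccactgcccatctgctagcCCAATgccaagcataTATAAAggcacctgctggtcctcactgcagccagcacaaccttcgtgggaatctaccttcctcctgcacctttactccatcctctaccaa
Krt25: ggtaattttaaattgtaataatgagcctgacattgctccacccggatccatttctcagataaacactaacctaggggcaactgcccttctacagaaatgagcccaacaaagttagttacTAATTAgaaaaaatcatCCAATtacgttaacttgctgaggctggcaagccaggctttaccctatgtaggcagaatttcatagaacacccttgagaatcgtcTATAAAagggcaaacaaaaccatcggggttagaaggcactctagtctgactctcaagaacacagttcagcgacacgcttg
Krt27: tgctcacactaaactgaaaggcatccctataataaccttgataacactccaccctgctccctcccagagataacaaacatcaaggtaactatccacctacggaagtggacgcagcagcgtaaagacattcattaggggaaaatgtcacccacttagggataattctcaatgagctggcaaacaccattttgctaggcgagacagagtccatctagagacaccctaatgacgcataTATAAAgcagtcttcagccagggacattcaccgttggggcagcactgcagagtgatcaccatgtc
Krt28: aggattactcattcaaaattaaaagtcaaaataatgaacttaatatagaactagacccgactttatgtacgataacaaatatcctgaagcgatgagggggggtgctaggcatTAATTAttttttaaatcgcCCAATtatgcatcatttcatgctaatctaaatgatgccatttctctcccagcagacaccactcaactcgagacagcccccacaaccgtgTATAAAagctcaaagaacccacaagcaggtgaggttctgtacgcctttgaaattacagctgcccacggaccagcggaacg
Krt73: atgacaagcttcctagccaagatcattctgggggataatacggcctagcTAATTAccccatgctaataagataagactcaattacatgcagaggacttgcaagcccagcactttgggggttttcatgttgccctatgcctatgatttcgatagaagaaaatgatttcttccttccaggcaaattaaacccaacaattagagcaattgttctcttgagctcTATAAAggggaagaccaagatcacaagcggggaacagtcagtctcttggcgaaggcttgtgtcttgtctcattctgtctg
Krt24: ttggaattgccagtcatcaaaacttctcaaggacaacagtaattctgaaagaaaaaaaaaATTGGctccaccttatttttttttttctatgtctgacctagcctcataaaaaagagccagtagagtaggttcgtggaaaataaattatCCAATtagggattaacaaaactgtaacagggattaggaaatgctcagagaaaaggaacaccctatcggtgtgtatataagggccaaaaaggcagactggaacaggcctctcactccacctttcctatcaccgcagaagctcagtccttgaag

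These windows lie at chr15:101743048-101743347, chr11:99322902-99323201, chr11:99351069-99351368, chr11:99374854-99375153, chr15:101802311-101802610 and chr11:99285213-99285512, in the order printed. TATAAA began 15 to 40 bases before the start in all 5 inner root sheath windows and was not among the letters of the Krt24 window. For the TATA box, only these exact letters were searched. The Krt24 window holds the similar run tatataag, so the search cannot decide whether Krt24 has a TATA box. The windows of Krt26 and Krt72, inner root sheath members outside those 5, also held a match, that of Krt72 on the opposite strand. TATAAA is in 13.57% of the 32544 RefSeq promoter windows and in 17 of the 34 keratin genes that had one. TAATTA was in the windows of Krt71, Krt25, Krt28 and Krt73, and is in 5.29% of all windows and 5 of the 34. CCAAT was in those of Krt71, Krt25 and Krt28 and at 2 places in that of Krt24, and is in 37.36% of all windows and 14 of the 34. The search also took in GATA, AP-1, Sp1 and RUNX motifs, which are not capitalized. The GATA letters AGATAA were in the windows of Krt71, Krt25, Krt27 and Krt73, and are in 11.16% of all windows and 10 of the 34. Matches to the AP-1, Sp1 and RUNX motifs were in none of the printed windows. The capitalized motifs did not overlap one another, and a match describes letters, not a bound site.

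Krt73, a type II keratin of the inner root sheath cuticle at chr15:101793308-101802346, stood at 0.746, 0.341 and 0.671 CPM in Sca-1+ tdT+, at 34.8 and 37.5 CPM in Sca-1+ tdT-, at 2.81, 4.98 and 0.992 CPM in Sca-1neg tdT+ and at 8.06, 4.07 and 2.81 CPM in Sca-1neg tdT-. Both Sca-1+ tdT- libraries lay far above the other 9, and the 3 Sca-1+ tdT+ libraries were the lowest. Krt73 fell by 5.92 ± 0.70 on the log2 scale in tdT+ against tdT- cells of the Sca-1+ gate (adjusted p = 0.0013), a call that held in 16 of 17 alternatives. In the Sca-1neg gate the tdT difference was -0.77 ± 0.55 (adjusted p = 0.761). The effect of tdT differed between the gates by -5.15 ± 0.85 (adjusted p = 0.0269). Without the 3 libraries with liver transcripts this difference was -3.51 (adjusted p = 0.0968), and it passed in 8 of 17 alternatives.

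Against Sca-1neg cells, Krt73 in Sca-1+ cells rose by 2.86 ± 0.61 on the log2 scale without tdT (adjusted p = 0.0225) and fell by 2.295 ± 0.59 with tdT (adjusted p = 0.0287). The first call was lost without Sca-1+ tdT- replicate 1 or 2 and without Sca-1neg tdT- replicate 2 or 3. The second was -0.73 (adjusted p = 0.501) without the libraries with liver transcripts and -1.68 (adjusted p = 0.0912) when only the library labelled Sca-1neg tdT+ replicate 2 was dropped.

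Krt71 (type II) and its partners Krt25, Krt27 and Krt28 (type I) are keratins of the inner root sheath layers. Krt71 stood at 97.9, 7.10 and 3.46 CPM in Sca-1+ tdT+, at 194 and 225 CPM in Sca-1+ tdT-, at 6.21, 20.1 and 2.87 CPM in Sca-1neg tdT+ and at 14.9, 21.3 and 8.44 CPM in Sca-1neg tdT-. Krt25 stood at 40.9, 0.909 and 3.20 CPM in Sca-1+ tdT+, at 109 and 101 CPM in Sca-1+ tdT-, at 2.27, 12.9 and 4.13 CPM in Sca-1neg tdT+ and at 7.62, 15.1 and 4.83 CPM in Sca-1neg tdT-. As for Krt73, the Sca-1+ tdT- libraries were the highest, but here Sca-1+ tdT+ replicate 1 lay between them and the rest. Krt27 stood at 16.3, 1.02 and 2.43 CPM in Sca-1+ tdT+, at 50.3 and 40.3 CPM in Sca-1+ tdT-, at 2.31, 7.02 and 1.98 CPM in Sca-1neg tdT+ and at 4.71, 3.17 and 2.34 CPM in Sca-1neg tdT-. Krt28 reached 12.6 and 20.5 CPM in Sca-1+ tdT- and at most 7.19 CPM in any other library.

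None of these 4 genes was called by edgeR. For tdT+ against tdT- in the Sca-1+ gate, the log2 fold changes were -2.53 ± 1.36 for Krt71, -2.80 ± 1.40 for Krt25, -2.77 ± 1.01 for Krt27 and -2.57 ± 0.82 for Krt28, and the lowest adjusted p was 0.157. Without Sca-1+ tdT+ replicate 1, Krt25 and Krt27 passed (adjusted p = 0.0497 and 0.0162), and DESeq2 called Krt28. For Sca-1+ against Sca-1neg cells without tdT they were 3.82 ± 1.42 for Krt71, 3.52 ± 1.43 for Krt25, 3.73 ± 1.04 for Krt27 and 1.89 ± 0.81 for Krt28, and the lowest adjusted p was 0.0741. In that comparison Krt27 and Krt71 were called without Sca-1+ tdT+ replicate 1, and Krt27 without Sca-1+ tdT+ replicate 2. Neither dropped library belongs to the groups compared there. The model shares its filter, scaling and estimate of the spread over all libraries. Of the 7 inner root sheath keratins, 7 had a positive estimate in that comparison, with a median of 2.86, and 6 a negative one for tdT in the Sca-1+ gate, with a median of -2.68. Of all 20307 genes tested, 8437 were positive in the former and 9282 negative in the latter. Among the 7, Krt72 stood at 0.285 and 9.30 CPM in Sca-1+ tdT-. The estimates share the same libraries and are not separate observations.

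Tchh, which encodes trichohyalin of the inner root sheath, stood at 110, 9.88 and 12.9 CPM in Sca-1+ tdT+, at 229 and 207 CPM in Sca-1+ tdT-, and between 10.9 and 29.8 CPM in the Sca-1neg libraries. The endothelial markers summed to 44.5 CPM in Sca-1+ tdT+ replicate 1 and to 2205 and 2341 CPM in Sca-1+ tdT-. Their part in the inner root sheath results was not tested. Only 2 libraries hold this pattern in full, so the difference rests on them.

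Hair shaft keratins were rare. The 12 members summed to 54.1, 5.68 and 12.0 CPM in Sca-1+ tdT+, to 39.0 and 28.8 CPM in Sca-1+ tdT-, to 17.2, 13.7 and 11.5 CPM in Sca-1neg tdT+ and to 7.85, 10.8 and 6.66 CPM in Sca-1neg tdT-. The most abundant ones, Krt35, Krt32 and Krt31, reached 33.5, 10.7 and 4.26 CPM in their highest libraries. Of the 12 members, 11 passed the filter and 0 were called by edgeR or had an unadjusted p under 0.05 in any of the 5 comparisons. Krt35 stood at 33.5 CPM in Sca-1+ tdT+ replicate 1, the library with raised inner root sheath keratins, against 0 and 0.723 CPM in the other replicates of that group. Krt31, Krt34, Krt81, Krt83, Krt86 and Krt87 share 23.2% to 43.5% of their windows with other genes and are uncertain one by one.

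Krt8 (type II) and Krt18 (type I) form the filaments of simple epithelia and are the keratin pair of hepatocytes. Krt18 stood at 1.04, 0 and 0.206 CPM in Sca-1+ tdT+, at 0.348 and 1.59 CPM in Sca-1+ tdT-, at 97.5, 44.5 and 0.716 CPM in Sca-1neg tdT+ and at 0.744, 50.5 and 0.268 CPM in Sca-1neg tdT-. The 3 values above 1.59 CPM are those of the libraries with liver transcripts. Krt8 stood at 1.23, 0.114 and 0 CPM in Sca-1+ tdT+, at 0.19 and 1.42 CPM in Sca-1+ tdT-, at 47.4, 10.3 and 3.36 CPM in Sca-1neg tdT+ and at 2.23, 25.1 and 2.66 CPM in Sca-1neg tdT-. The 3 libraries were thus apart from the other 8 in both genes. No edgeR comparison called either gene, with log2 fold changes of -6.68 ± 2.69 for Krt18 (adjusted p = 0.148) and -5.39 ± 1.86 for Krt8 (adjusted p = 0.0999) in Sca-1+ against Sca-1neg cells with tdT. Without the 3 libraries these values were -0.73 (adjusted p = 0.806) and -2.82 (adjusted p = 0.252). With all libraries, DESeq2 called both genes in that comparison (adjusted p = 0.00468 and 0.00446). Of the Krt8 windows, 26.9% occur in the pseudogene Krt8-ps, and Krt7 and Krt23 stayed at or below 23.5 CPM without an edgeR call. DESeq2 called Krt23 for Sca-1+ against Sca-1neg without tdT.

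**Figure D5:**
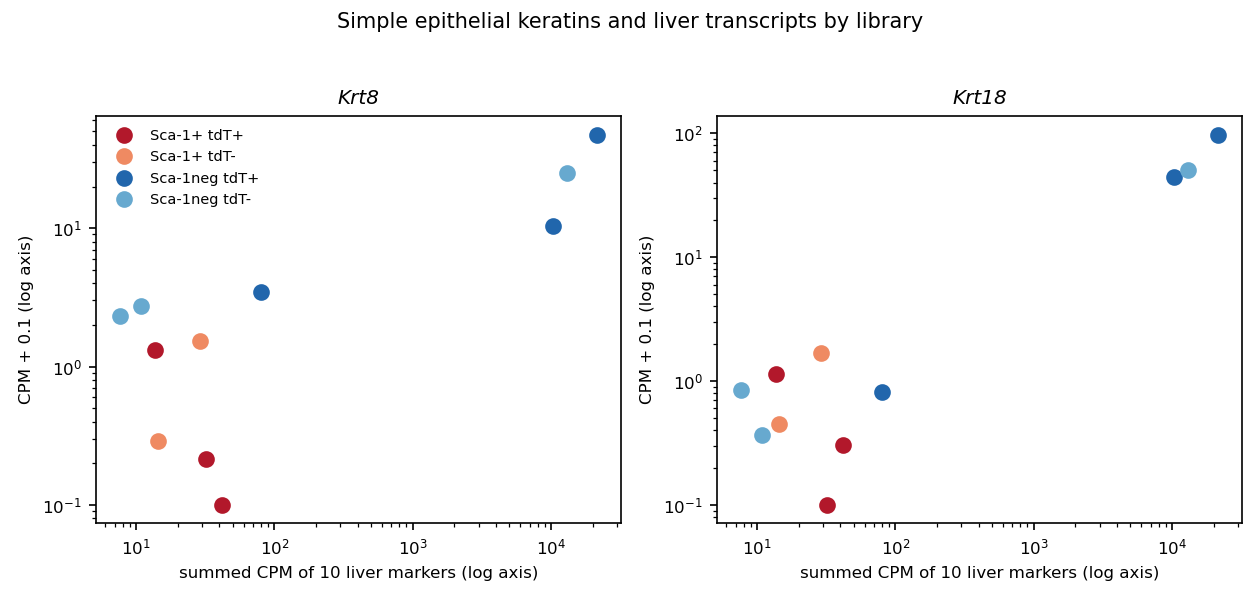
CPM + 0.1 of Krt8 (left) and Krt18 (right) against the summed CPM of 10 liver markers in each library (points coloured by group, log axes). The 3 libraries with 10358 to 21517 CPM of liver markers hold 10.3 to 47.4 CPM of Krt8 and 44.5 to 97.5 CPM of Krt18, and the other 8 lie at the lower left.

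Krt222 was called lower in Sca-1+ than in Sca-1neg cells with tdT, with a log2 fold change of -2.50 ± 0.68 (adjusted p = 0.0345). It stood at 0.373, 0.511 and 0.413 CPM in Sca-1+ tdT+ and at 1.40, 1.178 and 4.79 CPM in Sca-1neg tdT+, without overlap, and the call held in 6 of 17 alternatives. The remaining 25 members were not described one by one. None of them was called in any edgeR comparison, and the highest value among them was 845 CPM, of the suprabasal Krt80 in Sca-1+ tdT+ replicate 3. Among them, DESeq2 called Krt42 for Sca-1+ against Sca-1neg with tdT.

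Of 20 genes for proteins that bind or anchor keratin filaments, 2 were called higher and 0 lower in Sca-1+ than in Sca-1neg cells without tdT, where 3.68% and 2.06% of all genes were. Pkp1 (plakophilin 1, a desmosomal plaque protein) rose by 1.03 ± 0.17 on the log2 scale (adjusted p = 0.00843) and Dsg1a (desmoglein 1, a desmosomal cadherin) by 2.77 ± 0.61 (adjusted p = 0.0333). With tdT, 3 were called higher and 1 lower, where 5.94% and 6.73% of all genes were. Pkp1 rose by 1.31 ± 0.16 (adjusted p = 0.000517), with 2404, 2233 and 2233 CPM in Sca-1+ tdT+ against 844, 902 and 1029 CPM in Sca-1neg tdT+. Evpl (envoplakin) rose by 0.97 ± 0.24 (adjusted p = 0.0248) and Jup (plakoglobin) by 0.82 ± 0.21 (adjusted p = 0.0285), while Macf1, a cytoskeletal crosslinker, fell by 0.94 ± 0.19 (adjusted p = 0.0089). Between tdT+ and tdT- cells, 0 of the 20 were called by edgeR in either gate, with an unadjusted p under 0.05 for 3 in the Sca-1+ gate and 1 in the Sca-1neg gate (14.5% and 8.33% of all genes had one).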

How the data were processed

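The deposited values are raw counts per gene, 1 table per library. Per the submitters' processing notes, the tools named are STAR, featureCounts, bcl2fastq 2.20.0.422, DESeq2 1.18.1 and FastQC, and the build named is mm10. Details not given in the sources used here include how multi-mapping reads were treated, whether strand was used and which annotation release served. Total RNA was extracted with Trizol and libraries were made with TruSeq RNA v2, per the labels' protocols. Symbols for the 55536 gene identifiers came from GENCODE M21. An extra entry under a protein identifier was read as the tracer and kept out of the tests.

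Genes were tested in R 4.3.3 with edgeR 4.0.16 (TMM scaling, filterByExpr by group, quasi-likelihood F test, 1 model with 4 group means over 11 libraries, 7 residual degrees of freedom) and Benjamini-Hochberg adjustment over 20307 genes. Each SE was derived from F, as the size of the log2 fold change over its square root. The procedure was tested on simulated counts. DESeq2 1.42.0, its size factors, no filter, a replicate block, the 32-week libraries alone, omission of the 3 libraries with liver transcripts and omission of each of the 11 libraries were the 17 alternatives. Shares per length used the longest protein-coding transcript, and a length over all annotated exons was an alternative chosen after the data were seen. A window of 50 bases was called shared when it occurs in another gene's transcript.

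Members and lists were chosen with earlier results of these data known. Keratins described singly were the given markers, the 3 most abundant of each compartment by per-length level among those of at least 1 CPM in a group, and every called gene of at least 1 CPM in a group. Up to 4 called filament partners per comparison were named.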

Additional observations from a re-analysis of the deposited data

Results flagged for a closer look

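Krt73 was the 1 keratin for which the effect of tdT differed between the gates by the test of that difference itself. The log2 fold change of tdT+ against tdT- was -5.92 in the Sca-1+ gate and -0.77 in the Sca-1neg gate, a difference of -5.153 ± 0.85 (SE; edgeR adjusted p = 0.0269). Krt73 averaged 0.586 ± 0.216 CPM in Sca-1+ tdT+ (SD, n = 3) and 36.1 ± 1.92 CPM in Sca-1+ tdT- (n = 2), and 2.93 ± 2.00 CPM in Sca-1neg tdT+ and 4.98 ± 2.74 CPM in Sca-1neg tdT- (n = 3 each). The difference ran from -5.99 to -3.51 over 17 alternatives and passed in 8 of them.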

How the results depend on the processing

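No keratin call changed sign under any of the 17 alternatives, and 2 of the 16 calls held in all of them. Counts below are for tdT+ against tdT- in the Sca-1neg gate, the same in the Sca-1+ gate, Sca-1+ against Sca-1neg in tdT- cells, the same in tdT+ cells, and the difference of the tdT effects, in that order. As reported, 0, 2, 5, 8 and 1 keratins and 13, 556, 1166, 2572 and 98 genes were called. DESeq2 called 1, 4, 10, 14 and 5 keratins and 436, 1512, 2957, 4808 and 890 genes. Without a low-count filter, 81 genes were called for tdT in the Sca-1neg gate, and 234 genes with 2 keratins for the difference. DESeq2's size factors in edgeR gave 156 genes for the difference. In the 32-week libraries alone, 0, 1, 0, 1 and 0 keratins and 0, 64, 9, 345 and 0 genes were called. Without the libraries with liver transcripts, 1, 2, 6, 7 and 1 keratins and 38, 1286, 2073, 2221 and 220 genes were called, with 1 Sca-1neg tdT+ library left. Leaving out 1 library at a time gave 0 to 0, 2 to 4, 0 to 7, 3 to 8 and 0 to 1 keratins and 0 to 14, 145 to 791, 116 to 1665, 1591 to 3040 and 26 to 347 genes. The count of 0 keratins in tdT- cells came without Sca-1+ tdT- replicate 1. Correlations of same-numbered libraries, taken after removal of the group means, ran from -0.415 to 0.589. Differently numbered libraries were not compared, so these values cannot decide whether the replicate numbers pair the samples. With a replicate block, 0, 3, 5, 7 and 2 keratins and 15, 502, 1027, 2571 and 123 genes were called, and Krt14 passed for tdT in the Sca-1+ gate (0.90, adjusted p = 0.0245) and for the difference (1.33, adjusted p = 0.0362). For compartment shares, 106 of 120 recomputed means moved by less than 1 SD. Of the 106, 36 came from leaving out the libraries with liver transcripts. These include all means of the Sca-1+ groups, which hold no such library and so could not move. The rest were 37 with the length of all annotated exons and 33 with raw counts. The cause of these changes was not tested.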
